A study of Mus musculus with 8 samples.

Results

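Among the 47937 gene IDs counted in pro-B cells after depletion of EBF1, 7 genes were grouped because their RNA was scarce before treatment and several-fold higher after it: Tmem108, Ckb, Myof, Adap1, Tesc, Qrfp and Platr25. They were chosen by name for that change, so their own values below are a description and carry no test. The cells were A-MuLV transformed mouse pro-B cells, an immortal model of B cell precursors obtained with the Abelson murine leukaemia virus. The endogenous EBF1 had been replaced by an introduced, modified gene whose product carries the dTAG degron (genotype EBF1-dTAG_N), and all 8 libraries share this genotype. One group of 4 libraries came from cells given 0.5 µM dTAG-13, a small molecule that directs dTAG-bearing proteins to degradation, for 6 h. The other 4 came from cells given the solvent DMSO, titled 0 h but with a treatment label of 6 h. No library of untagged cells was used, so effects of the compound and of EBF1 loss cannot be told apart. The labels call the 4 libraries of each group biological replicates and do not say whether they are separate clones.

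EBF1 is a transcription factor needed for commitment to the B lineage. It binds as a dimer to a palindromic motif and is known both to activate B-lineage genes and to hold other genes low. The 7 genes share no pathway. Qrfp encodes the precursor of an RFamide neuropeptide (QRFP, or 26RFa) known for effects on feeding, and Tmem108 encodes a single-pass membrane protein studied mainly in neurons. Myof encodes myoferlin, a ferlin with C2 domains that acts in membrane fusion and repair. Ckb encodes the brain-type cytosolic creatine kinase, which transfers phosphate between ATP and creatine. Adap1 (centaurin alpha) encodes a GTPase-activating protein for ARF small GTPases that binds phosphoinositides. Tesc encodes tescalcin, an EF-hand calcium-binding protein. Platr25 was named as a pluripotency-associated transcript of embryonic stem cells. In GENCODE vM21 it is annotated as protein-coding, in the RefSeq table as misc_RNA.

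The genes lie on 6 chromosomes of GRCm38 and differ in structure. Tmem108 (ENSMUSG00000042757.15) spans 103482947 to 103761837 on the minus strand of chromosome 9, with 268961 bases of intron around 9930 bases of exon. Myof (ENSMUSG00000048612.15) spans 37899036 to 38043577 on the minus strand of chromosome 19 and has 131939 intronic bases. Platr25 (ENSMUSG00000074863.4) spans 62671784 to 62760709 on the minus strand of chromosome 13 and has 82746. Adap1 (ENSMUSG00000056413.16) lies at 139271876 to 139325622 on the minus strand and Tesc (ENSMUSG00000029359.13) at 118027743 to 118061878 on the plus strand of chromosome 5, with 50455 and 32545 intronic bases. Qrfp (ENSMUSG00000043102.2), at 31806166 to 31810580 on the minus strand of chromosome 2, has 1488 intronic bases. Ckb (ENSMUSG00000001270.8), at 111669361 to 111672338 on the minus strand of chromosome 12, has only 83 bases that no annotated exon covers, so its intronic reads say next to nothing. These spans are those of GENCODE vM21, in which the IDs of Tmem108, Ckb, Myof and Platr25 carry another version than in the count tables.

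RefSeq (GRCm38.p6) gave 7 promoter windows for 6 of the 7 genes. In the 250 bases before each annotated start, the palindrome CCCNNGGG, the core of the EBF motif, and its longer form with a T before and an A after it were searched. Both read the same on either strand, and every long match contains a core match. The long form occurred in 0.779% and the core in 11.8% of the 32851 windows of this length in the table. The long form occurred in 1 window of the set, before a second RefSeq start of Tmem108 that lies inside the gene, 69030 bases downstream of the first, and the core occurred in 4. Both Tmem108 windows and that of Tesc are shown because they hold these matches. The Adap1 window holds 1 core match, 105 bases before the start, but overlaps an annotated exon and is not printed. The windows of Ckb, Myof and Qrfp hold neither sequence. Capitals mark the matches, and each window runs 5′ to 3′ on the strand of its gene up to the last base before the start:
Tmem108, first start, chr9:103761838-103762087, minus strand, GRCm38.p6: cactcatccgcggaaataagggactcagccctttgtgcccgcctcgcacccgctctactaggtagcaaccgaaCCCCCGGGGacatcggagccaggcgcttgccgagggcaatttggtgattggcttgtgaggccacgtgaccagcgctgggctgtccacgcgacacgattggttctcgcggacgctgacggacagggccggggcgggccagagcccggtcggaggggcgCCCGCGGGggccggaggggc
Tmem108, second start, chr9:103692808-103693057, minus strand, GRCm38.p6: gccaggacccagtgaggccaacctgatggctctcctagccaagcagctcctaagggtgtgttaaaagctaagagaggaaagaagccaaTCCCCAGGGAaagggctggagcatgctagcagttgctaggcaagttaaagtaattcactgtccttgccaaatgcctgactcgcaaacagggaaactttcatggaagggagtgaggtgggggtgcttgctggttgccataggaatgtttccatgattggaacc
Tesc, chr5:118027493-118027742, plus strand, GRCm38.p6: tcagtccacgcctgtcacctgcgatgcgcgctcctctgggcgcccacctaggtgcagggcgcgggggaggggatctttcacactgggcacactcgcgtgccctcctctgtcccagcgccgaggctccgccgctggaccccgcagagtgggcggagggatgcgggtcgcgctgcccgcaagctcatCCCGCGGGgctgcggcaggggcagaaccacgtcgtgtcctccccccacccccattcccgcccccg
In the first Tmem108 window the core occurs 3 times, with first bases 177, 176 and 20 bases before the start, the first and second overlapping. The long match in the second window is TCCCCAGGGA, and the core within it starts 161 bases before the start. The Tesc match starts 65 bases before the start. The first Tmem108 window is 69.2% G or C with 27 CG dinucleotides, and the Tesc window 73.2% with 26. The second Tmem108 window is 51.6% G or C with 1. A match shows that these letters are present and is not a measurement of binding.

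Each gene has an exonic count and a whole-gene count, and the difference gives intronic reads, most of which come from unspliced RNA. Exonic reads numbered 28982316 to 38999496 and intronic reads 8286937 to 13293487 per library. Levels are CPM, reads of a gene scaled to a common library size within its read class, so exonic and intronic CPM have different denominators. A count of 3 reads, the floor used here, is 0.0765 to 0.104 exonic CPM or 0.230 to 0.357 intronic CPM. The predicted genes Gm26917 and Gm42418 took 25.7% to 29.3% of exonic reads and mitochondrial genes 0.419% to 0.533%. Ebf1 RNA was present in all libraries and 1.23-fold higher after dTAG-13, and RNA does not measure the degraded protein. Of the 12 pro-B markers, 10 fell and 1 rose, with summed exonic levels of 2425 to 2560 CPM after dTAG-13 and 3188 to 3247 CPM in DMSO. The marker that rose was Ebf1, the modified gene itself, which gave a mean of 767 CPM of the sum after dTAG-13 and 623 CPM in DMSO. What the falls of the 10 markers contribute to the rises below was not tested. Pluripotency markers had no read in any library, at 6 of 6. T cell and stromal markers were at 0 in 5 of 6 and 4 of 6. The T cell marker with reads, Trac, averaged 0.328 CPM after dTAG-13 and 0.112 CPM in DMSO. Its groups overlap, and it had too few reads to be tested. Myeloid markers summed to 3.52 to 4.34 CPM after dTAG-13 and 4.08 to 4.62 CPM in DMSO. Most of the myeloid sum was Cd68, which did not pass (edgeR adjusted p = 0.129). Lyz2, the myeloid lysozyme gene, rose, with 0.575 ± 0.220 CPM after dTAG-13 and 0.236 ± 0.0934 CPM in DMSO (SD, n = 4 each), a log2 change of 1.26 ± 0.43 (SE, edgeR adjusted p = 0.0305). The part of Lyz2 in the rises of the 7 genes was not tested. Neuronal markers summed to 345 to 355 CPM after dTAG-13 and 237 to 260 CPM in DMSO, nearly all of it Tubb3, which rose by a log2 of 0.52. Snap25, Syn1, Map2, Rbfox3 and Gap43 held at most 15 reads each over all libraries. Muscle markers summed to 1.148 to 1.97 CPM after dTAG-13 and 2.14 to 3.11 CPM in DMSO, with Ckm, Myh1 and Mb at 0 and Tnnt3 lower by a log2 of -1.52 (edgeR adjusted p = 7.47e-05). Acta1, the other tested muscle marker, went the other way by a log2 of 0.70 and did not pass (edgeR adjusted p = 0.197). In bulk RNA, more cells of a type and more RNA per cell cannot be told apart.

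**Figure D1:**
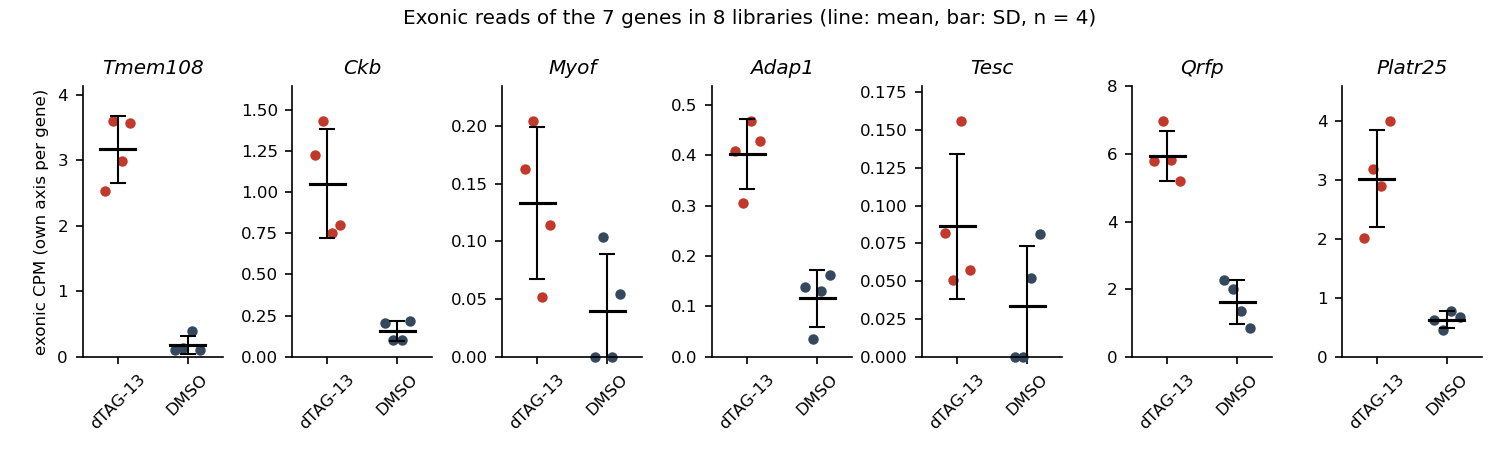
Exonic CPM of each of the 7 genes in the 4 dTAG-13 libraries (red, left) and the 4 DMSO libraries (dark, right), with the mean and SD of each group and an axis of its own per gene. The groups are apart for Tmem108, Ckb, Adap1, Qrfp and Platr25 and overlap for Myof and Tesc, whose libraries hold at most 8 exonic reads each.

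Qrfp, the neuropeptide precursor, had the highest exonic level per kb of the 7 genes in both groups. It measured 5.79, 6.97, 5.82 and 5.20 exonic CPM in the dTAG-13 libraries and 2.28, 2.003, 1.36 and 0.838 CPM in the DMSO libraries. All treated libraries lie above all DMSO libraries, among which replicate 4 is lowest. The fitted change was a log2 of 1.90 ± 0.21 (SE, n = 4 per group), or 3.74-fold. Intronic Qrfp measured 6.84, 5.86, 7.66 and 5.18 CPM after dTAG-13 and 1.02, 0.715, 1.23 and 0.609 CPM in DMSO. Its fitted intronic log2 change was 2.80 ± 0.32 (SE), or 6.97-fold. The intronic reads come from 1488 bases in which 287 reads were counted after dTAG-13 and 38 in DMSO.

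Tmem108 showed the largest fitted exonic rise of all 12889 tested genes. It had 2.53, 3.60, 2.99 and 3.57 exonic CPM in the dTAG-13 libraries and 0.104, 0.138, 0.391 and 0.108 CPM in the DMSO libraries. In DMSO these are 3, 4, 15 and 4 reads, and replicate 3 stands above the other DMSO libraries. The log2 change was 4.01 ± 0.33 (SE, n = 4 per group), or 16.1-fold. Without DMSO replicate 3 it was 4.73. Intronic reads numbered 14, 25, 12 and 33 in the dTAG-13 libraries, against 0, 0, 1 and 0 in the DMSO libraries. As the DMSO sum is 1 read, the ratio of the scaled sums is 77.0 with an exact 95% interval of 13.5 to 3078, which covers counting error only. The intronic reads are thin for so long a gene, 0.312 reads per kb of intron after dTAG-13 against 47.7 reads per kb of exon. Of the 50-base stretches in its transcripts, 14.2% also occur in the antisense gene Gm16252. The 5 annotated genes that overlap Tmem108 held 3 exonic reads after dTAG-13 and 2 in DMSO over all libraries, against 474 and 26 for Tmem108.

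Myof, the membrane repair gene, was detected mainly in introns. Exonic reads numbered 6, 8, 2 and 4 in the dTAG-13 libraries and 0, 3, 0 and 2 in the DMSO libraries, too few to pass the filter on low counts. The groups overlap, and the ratio of scaled sums was 3.56 (exact 95% interval 1.30 to 12.2, counting error only). Intronic Myof measured 2.38, 1.19, 1.495 and 1.04 CPM after dTAG-13, against 0.340, 0.477, 0 and 0 CPM in DMSO. All treated libraries lie above all DMSO libraries, of which replicates 3 and 4 held no intronic read. The intronic log2 change was 3.04 ± 0.69 (SE, n = 4 per group), or 8.22-fold, and it was 3.88 without DMSO replicate 2.

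Ckb, the creatine kinase, could be described in exons alone. It had 1.22, 1.43, 0.753 and 0.8002 exonic CPM in the dTAG-13 libraries, of which replicates 1 and 2 are the higher pair. The DMSO libraries had 0.207, 0.104, 0.104 and 0.216 CPM, from 3 to 8 reads each. The log2 change was 2.71 ± 0.42 (SE, n = 4 per group), or 6.55-fold, with groups apart. A single intronic read was counted, in dTAG-13 replicate 4. Of its 50-base stretches, 9.98% occur in other genes, nearly all in the predicted gene Gm12892, so part of its exonic count is uncertain.

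Adap1, the ARF regulator, started at 1 to 6 exonic reads per DMSO library. It measured 0.408, 0.306, 0.467 and 0.429 exonic CPM after dTAG-13 and 0.138, 0.0345, 0.130 and 0.162 CPM in DMSO. The groups are apart, and the log2 change was 1.72 ± 0.50 (SE, n = 4 per group), or 3.304-fold. The fitted intronic change was larger, and whether it differs from the exonic one was not tested. Intronic levels stood at 1.87, 3.41, 1.49 and 3.43 CPM after dTAG-13, with replicates 2 and 4 as the higher pair, and at 0, 0.119, 0.383 and 0.609 CPM in DMSO. The intronic log2 change was 3.03 ± 0.55 (SE), or 8.18-fold, and 3.67 without DMSO replicate 4. Over whole-gene counts the log2 change was 2.49.

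Tesc, the calcium-binding protein gene, was close to absent from exons, with 3, 2, 6 and 2 exonic reads in the dTAG-13 libraries and 0, 0, 2 and 3 in the DMSO libraries. These groups overlap, the gene did not pass the filter, and the ratio of scaled sums was 2.32 (exact 95% interval 0.775 to 8.30, counting error only). Introns gave 1.76, 2.54, 2.43 and 1.28 CPM after dTAG-13, against 0, 0.477, 0.230 and 0.348 CPM in DMSO. All treated libraries lie above all DMSO libraries here. The intronic log2 change was 2.87 ± 0.55 (SE, n = 4 per group), or 7.32-fold.

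Platr25 had the most intronic reads of the 7 genes, 1844 after dTAG-13 and 481 in DMSO, and the smallest fitted intronic change of the 6 that were tested. It stood at 38.8, 44.8, 37.6 and 40.1 intronic CPM after dTAG-13 and at 14.3, 8.34, 10.96 and 12.4 CPM in DMSO. Its intronic log2 change was 1.81 ± 0.13 (SE, n = 4 per group), or 3.50-fold. In exons it measured 2.01, 3.19, 2.91 and 4.00 CPM after dTAG-13 and 0.622, 0.449, 0.783 and 0.676 CPM in DMSO. That gives a log2 change of 2.23 ± 0.26 (SE), or 4.71-fold, with all treated libraries above all DMSO libraries in both read classes. Its transcripts share 7.15% of their 50-base stretches with 65 other genes, so part of its exonic count is uncertain.

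**Figure D2:**
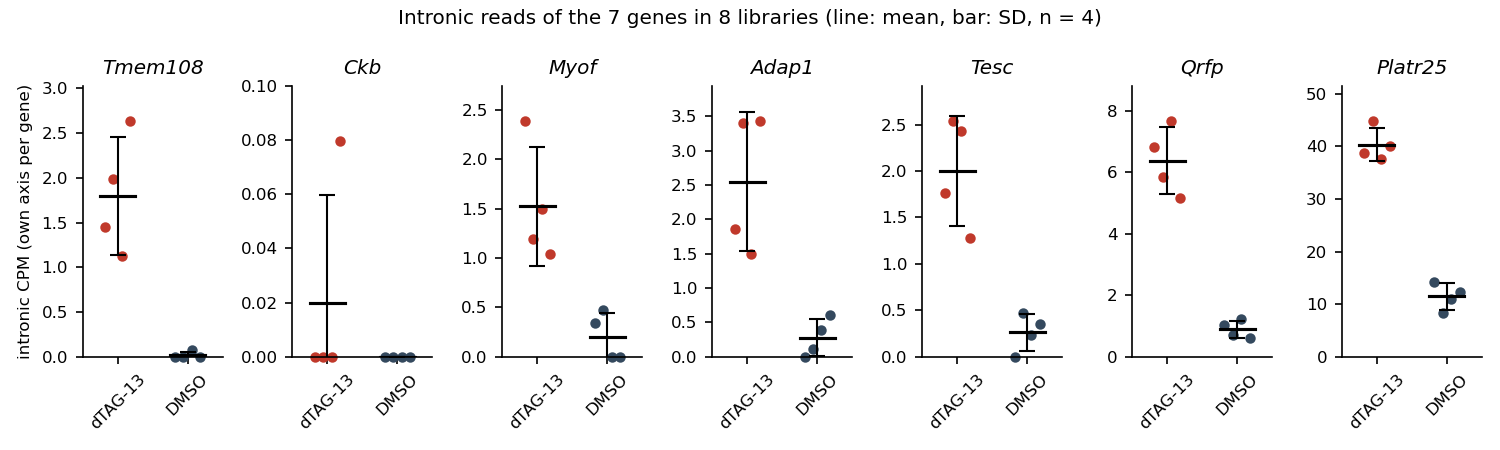
Intronic CPM, from whole-gene minus exonic counts, of each gene in the 4 dTAG-13 libraries (red, left) and the 4 DMSO libraries (dark, right), with group mean and SD and an axis of its own per gene. All dTAG-13 points lie above all DMSO points for the 6 genes other than Ckb, which has 1 intronic read in all.

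The genes were named for rising from low levels, and they stand at the thin end of the data. In exonic counts 5 of the 7 passed the filter on low counts, and all 5 had treated libraries wholly above DMSO libraries, as 14.2% of the 12889 tested genes did. In intronic counts 6 of the 7 passed, all 6 with treated libraries on top, as 9.51% of the 11229 tested genes did. Since the choice used this contrast, nothing is read from these counts. Over all tested genes 1841 were called higher and 1808 lower in exonic counts (edgeR quasi-likelihood test, Benjamini-Hochberg adjusted p below 0.05), which is 28.3% of them. In intronic counts 927 were called higher and 954 lower, or 16.8%. With library totals alone for scaling the exonic split was 1952 higher and 1403 lower, and the intronic split 1174 higher and 732 lower.

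Large rises were rare across the table. A fitted rise of at least 4-fold was found for 25 genes (0.194%) in exonic counts, 24 of which averaged under 1 CPM in DMSO, while 15.8% of all tested genes lie under that level. In intronic counts it was found for 27 genes (0.24%), 17 of them under 1 CPM in DMSO, against 2.30% of all tested. Genes almost absent in DMSO pass the filter on low counts only through their treated libraries. The filter thus sets part of this contrast in level. Among exonic rises Tmem108 ranked 1, Ckb 10, Platr25 18, Qrfp 30 and Adap1 42. Among intronic rises Tmem108 ranked 1, Myof 6, Adap1 7, Tesc 9, Qrfp 11 and Platr25 40.

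**Figure D3:**
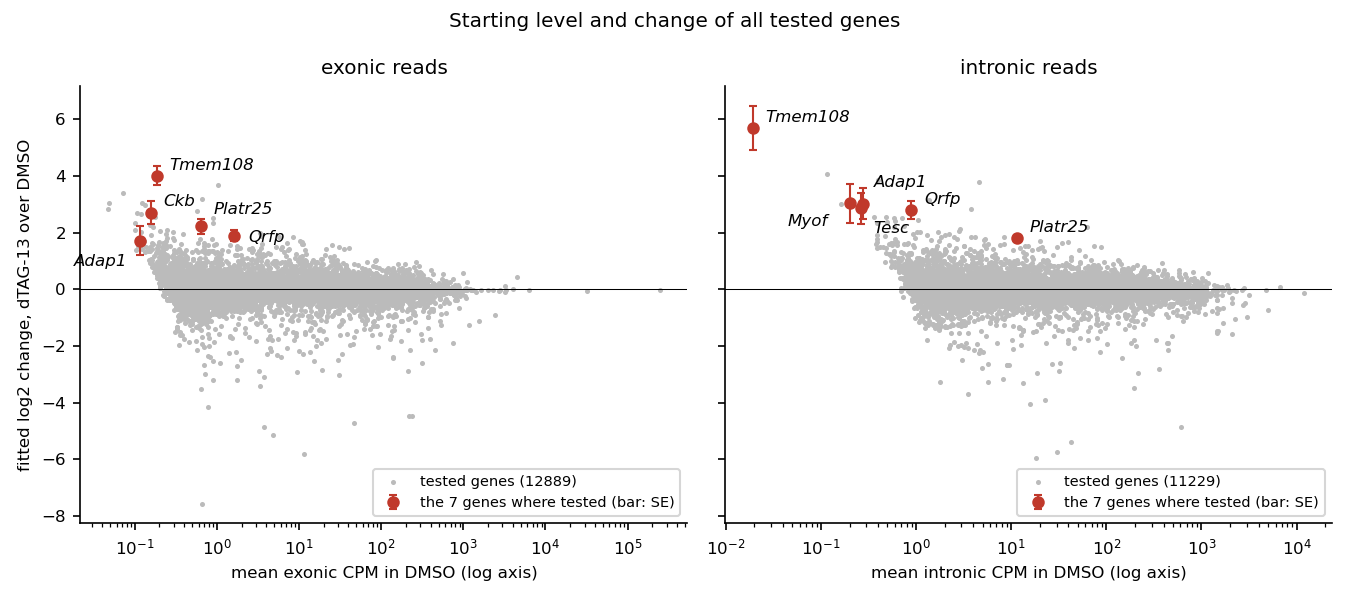
Fitted log2 change (dTAG-13 over DMSO) against the mean CPM in DMSO (log axis) of every tested gene with a DMSO read (grey), for exonic reads (left) and intronic reads (right). The named genes (red, bar: SE) sit on the upper left edge, except Platr25, whose intronic level in DMSO averaged 11.5 CPM. The low end of each cloud is cut by the filter, which low genes pass through their treated libraries.

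The intronic share of whole-gene reads set the genes apart from each other. Over the 4 dTAG-13 libraries it was 87.5% for Tesc, 80.3% for Platr25, 77.0% for Myof and 66.7% for Adap1, but 24.3% for Qrfp and 15.1% for Tmem108. In DMSO it was 68.8% for Tesc, 84.8% for Platr25, 58.3% for Myof, 44.8% for Adap1, 15.5% for Qrfp and 3.70% for Tmem108. All genes together gave 20.4% to 27.3% per library. For Qrfp the exact 95% binomial intervals were 21.9% to 26.9% after dTAG-13 and 11.2% to 20.7% in DMSO. For Platr25 they were 78.7% to 82.0% after dTAG-13 and 81.6% to 87.7% in DMSO. The DMSO intervals of Tmem108, Myof, Adap1 and Tesc rest on 12 to 29 whole-gene reads each and are wide. These intervals pool the reads of 4 libraries and cover counting error only, so they are no comparison of the groups.

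Per length the order is another one. After dTAG-13, intronic reads per kb were 63.3% of exonic reads per kb for Qrfp, 34.2% for Tesc, 32.0% for Myof, 30.5% for Platr25, 13.05% for Adap1 and 0.654% for Tmem108. Per kb of exon, the level after dTAG-13 was 2.03 CPM for Qrfp, 0.490 for Platr25, 0.363 for Ckb, 0.319 for Tmem108, 0.122 for Adap1, 0.0543 for Tesc and 0.0106 for Myof. The level in DMSO on that scale was 0.553 CPM for Qrfp, 0.102 for Platr25, 0.0545 for Ckb, 0.0187 for Tmem108 and 0.0353 for Adap1. For Tesc and Myof it was 0.0209 and 0.0031 CPM. By these means Tmem108 was below Adap1 per kb in DMSO and above it after dTAG-13. The DMSO side rests on 26 exonic reads of Tmem108, 15 of them in replicate 3, and 16 of Adap1. The order in DMSO is therefore uncertain.

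**Figure D4:**
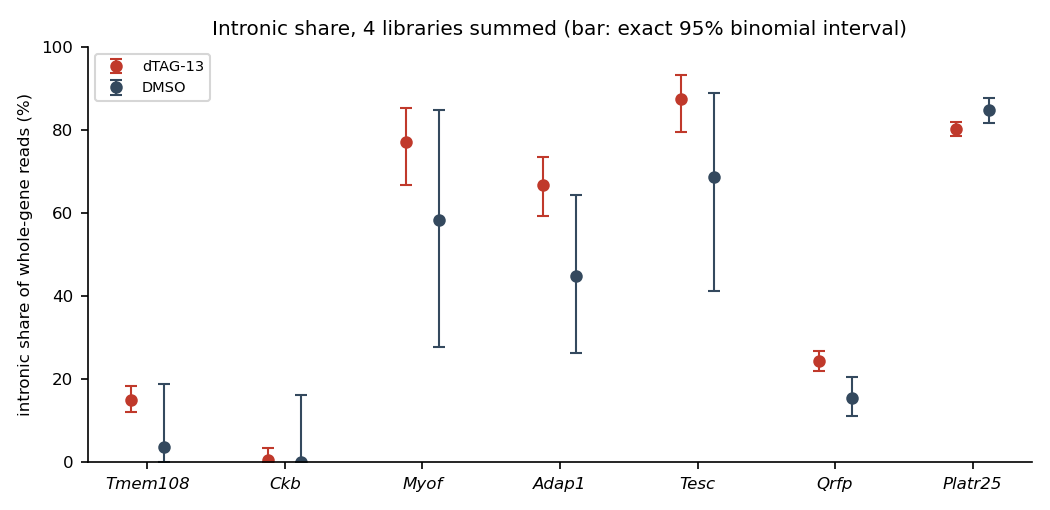
Intronic share of whole-gene reads (percent) of each gene, summed over the 4 dTAG-13 libraries (red, left of each pair) and the 4 DMSO libraries (dark, right), with exact 95% binomial intervals. Tesc, Platr25, Myof and Adap1 lie at 66.7% or more after dTAG-13, and Qrfp, Tmem108 and Ckb at 24.3% or less.

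The highest treated library was not the same for all genes. Among the 5 genes with tested exonic counts the highest dTAG-13 library was replicate 2 for Tmem108, Ckb and Qrfp, replicate 3 for Adap1 and replicate 4 for Platr25. In introns it was replicate 1 for Myof, 2 for Tesc and Platr25, 3 for Qrfp and 4 for Tmem108 and Adap1. The coefficient of variation between treated libraries ran between 12.4% for Qrfp and 31.3% for Ckb in tested exonic counts, and between 7.83% for Platr25 and 39.8% for Adap1 in introns.

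The authors' deposited table, made with DESeq2, lists for exonic counts log2 changes of 3.97 for Tmem108, 2.56 for Ckb, 2.17 for Platr25, 1.84 for Qrfp, 1.12 for Adap1, 0.06 for Myof and 0.04 for Tesc. For intronic counts the authors' deposited table lists 5.54 for Tmem108, 2.83 for Adap1, 2.73 for Qrfp, 2.61 for Tesc, 2.54 for Myof, 1.79 for Platr25 and 0.01 for Ckb. It used the same libraries, so the values are no second measurement.

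The genes next to the 7 were not part of their choice and were tested. Up to 3 named genes with tested exonic counts were taken on each side within 500 kb, 39 in all. Of these, 7 rose and 5 fell (edgeR quasi-likelihood test, adjusted over all 12889 genes), or 30.8%, against 28.3% of all tested genes. The median log2 change of the 39 was -0.01, against -0.003 over all genes. With the nearest gene on each side only, 3 of 14 were called, all higher. With whole-gene counts 7 of the 39 were called, those of Dnajc13, Bag5, Exoc6, Exosc2 and Aopep being lost.

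Tmem108 had 2 neighbours that rose with it. Bfsp2, which encodes the lens filament protein phakinin, lies 2527 bases downstream on the same strand. It had 2.37, 2.60, 1.82 and 2.49 exonic CPM in the dTAG-13 libraries, against 0.657, 1.17, 1.17 and 1.11 CPM in the DMSO libraries. The groups are apart, with a log2 change of 1.16 ± 0.24 (SE, edgeR adjusted p = 0.000483). The antisense-class transcript 5830418P13Rik lies 21687 bases downstream on the other strand. It had 4.41, 4.18, 4.28 and 4.89 exonic CPM after dTAG-13 and 1.80, 2.11, 2.50 and 1.89 CPM in DMSO. Its log2 change was 1.09 ± 0.17 (SE, edgeR adjusted p = 1.12e-05). In introns both rose as well, by a log2 of 1.35 ± 0.20 for Bfsp2 (edgeR adjusted p = 2.2e-05) and 1.23 ± 0.12 for 5830418P13Rik (edgeR adjusted p = 2.17e-08). Whether Bfsp2 and 5830418P13Rik overlap and share reads was not tested, so their rises may not be separate. Farther out, Cdv3 at 117107 bases downstream and Acad11 at 301540 bases upstream, had log2 changes of -0.02 and 0.17 that did not pass. Dnajc13, farther upstream, which encodes an endosomal DnaJ protein, fell by 0.11 (edgeR adjusted p = 0.0225). Its call was lost without any one of dTAG-13 replicates 2 and 3 and DMSO replicates 2 and 4 (edgeR adjusted p up to 0.0891).

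Of the genes around Myof, Hhex rose. It encodes a homeobox transcription factor of early blood and endoderm and lies 458305 bases downstream on the other strand. Hhex had 12.1, 9.26, 12.3 and 11.6 exonic CPM after dTAG-13 and 7.43, 4.35, 6.76 and 4.95 CPM in DMSO, with a log2 change of 0.94 ± 0.13 (SE, edgeR adjusted p = 3.03e-06). Its intronic log2 change of 0.66 ± 0.28 (SE) did not pass (edgeR adjusted p = 0.121). Exoc6, an exocyst subunit gene at 214977 bases, rose by 0.17 (edgeR adjusted p = 0.0221), a call lost without dTAG-13 replicate 4 or DMSO replicate 2 or 4 (edgeR adjusted p up to 0.102). Kif11, Cep55, Fra10ac1 and Slc35g1 did not pass, with log2 changes of -0.13 to -0.01.

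Around the other genes the called changes were small. Next to Platr25, the zinc finger gene Zfp935 rose by a log2 of 0.42 ± 0.11 (SE, edgeR adjusted p = 0.00319) and Aopep by 0.22 (edgeR adjusted p = 0.00581), while Zfp934, Gm22615 and Gm5141 did not pass. The Aopep call was lost with whole-gene counts (edgeR adjusted p = 0.149), and its intronic log2 change of 0.20 did not pass (edgeR adjusted p = 0.0644). Beside Adap1, Cox19, a mitochondrial assembly gene, rose by 0.34 (edgeR adjusted p = 0.0196) and 3110082I17Rik fell by 0.34 (edgeR adjusted p = 0.00116). The Cox19 call was lost without dTAG-13 replicate 1 or 4 or DMSO replicate 2 or 3 (edgeR adjusted p up to 0.0667). Get4, Sun1, Dnaaf5 and Gpr146 next to Adap1 did not pass in exonic counts. In introns Sun1 had a log2 change of -0.24 ± 0.08 (SE, edgeR adjusted p = 0.0402). Beside Qrfp, Fam78a fell by 0.30 (edgeR adjusted p = 7.07e-07) and Exosc2 by 0.15 (edgeR adjusted p = 0.0121, and 0.0587 without DMSO replicate 1). Abl1, only 1939 bases downstream of Qrfp on the other strand, had 3227 ± 95.3 CPM after dTAG-13 and 3271 ± 86.1 CPM in DMSO (SD, n = 4 each) and a log2 difference of -0.02. Reads of the A-MuLV oncogene, which carries part of Abl1, cannot be separated from Abl1 in these counts. Gm13608, Fubp3 and Nup214 near Qrfp did not pass either. The chaperone gene Bag5 beside Ckb fell by 0.18 and lies at the threshold, with the call lost in 12 of 15 alternatives, among them leaving out dTAG-13 replicate 1, 2 or 4 or DMSO replicate 1, 3 or 4 (edgeR adjusted p up to 0.158). Trmt61a, Mark3, Eif5, Snora28 and Coa8 near Ckb did not pass, nor did Fbxo21, Fbxw8, Rnft2 and Spring1 around Tesc. Of the Tesc neighbours 1 of 4 had an unadjusted edgeR p below 0.05, as did 4753 of the 12889 tested genes. DESeq2 called 0 of the 4.

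**Figure D5:**
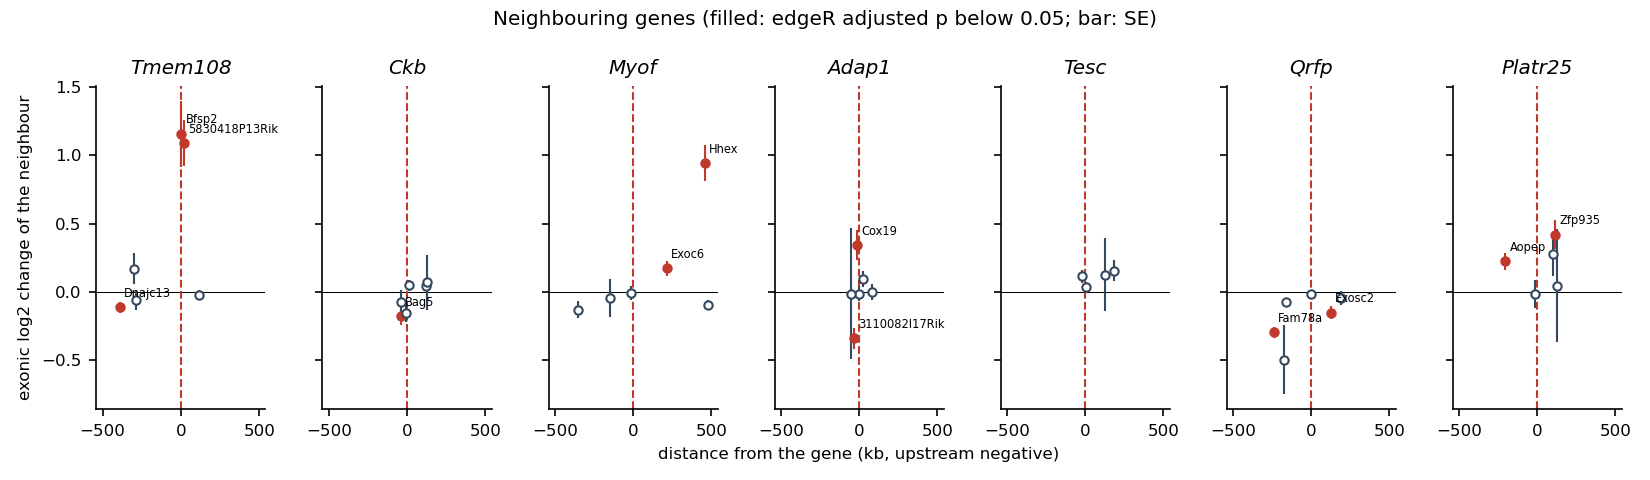
Exonic log2 change (dTAG-13 over DMSO, bar: SE) of up to 3 tested genes on each side of each of the 7 genes, against distance from the gene in kb, upstream negative. Filled points passed the test. The highest are Bfsp2 and 5830418P13Rik beside Tmem108 and Hhex beside Myof, and most others lie within 0.5 of 0.

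Genes that work with the 7 were listed by family, 145 in all, of which 143 were found and 74 had tested exonic counts. Of those 74, 21 rose and 12 fell, or 44.6%, against 28.3% of all tested genes, with a median log2 change of 0.04 against -0.003. The lists were not matched to all genes on level. They were chosen with earlier results of these data known, so the difference from all genes is no independent support for a link to the 7. With whole-gene counts 25 were called. Among the calls lost there were those of Ppp3ca (edgeR adjusted p = 0.111), Calm3 (0.058), Acap2 (0.0884), Arf6 (0.0536), Capn2 (0.0526), Arf4 (0.136), Agap3 (0.186), Gbf1 (0.148) and Chp1 (0.176).

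Of the other ferlin genes, Dysf, Otof, Fer1l4, Fer1l5 and Fer1l6 had no exonic read in any library. Of 13 tested genes of plasma membrane repair 6 rose and 1 fell, with a median log2 change of 0.19. That is 53.8% called, against 28.3% of all tested genes, which were not matched on level. The annexin genes Anxa1 and Anxa6, whose products bind membranes in the presence of calcium, rose by 0.60 ± 0.13 and 0.59 ± 0.04 (SE, edgeR adjusted p = 0.00106 and 4.2e-12). Anxa6 averaged 129 ± 4.13 CPM after dTAG-13 and 86.0 ± 3.61 CPM in DMSO (SD, n = 4 each). S100a10, an annexin partner, rose by 0.53, and the calpain genes Capn1, Capns1 and Capn2 rose by 0.37, 0.19 and 0.12. The Capn2 call was lost without dTAG-13 replicate 1 or 2 or DMSO replicate 1 or 3 (edgeR adjusted p up to 0.145). Anxa11 fell by 0.63 ± 0.04 (SE, edgeR adjusted p = 4.66e-12).

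In the ARF family of Adap1, 10 of 32 tested genes rose and 5 fell, with a median of 0.05. That is 46.9% called, against 28.3% of all tested genes, again not matched on level. Its paralog Adap2 had no exonic read. Cyth4, an ARF exchange factor of blood cells, averaged 31.4 ± 1.60 CPM after dTAG-13 and 11.9 ± 0.330 CPM in DMSO (SD, n = 4 each). That is a log2 change of 1.40 ± 0.07 (SE, edgeR adjusted p = 1.63e-15). Cyth1, of the same cytohesin family, fell by 0.54 ± 0.04 (SE, edgeR adjusted p = 4.9e-12). Among genes for GTPase-activating proteins, Arap2 rose by 0.90 ± 0.04, Acap1 by 0.51 and Agap2 by 0.44, while Arap1 fell by 0.32, Asap1 by 0.25 and Agap3 by 0.13. Smap2, Arf3, Acap2, Arf6, Gbf1 and Arf4 rose by 0.27 down to 0.12, and the exchange factor gene Iqsec1 fell by 0.48. The calls of Arf4, Gbf1 and Agap3 were each lost when single libraries were left out. For Arf4 these were dTAG-13 replicates 1, 2 and 3 and DMSO replicates 1, 3 and 4 (edgeR adjusted p up to 0.196), for Gbf1 dTAG-13 replicates 1 and 2 and DMSO replicates 2 and 3 (up to 0.109), and for Agap3 dTAG-13 replicates 2 and 4 and DMSO replicates 1 and 4 (up to 0.103).

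Of 15 tested genes around tescalcin, its exchanger partners and calcineurin, 4 rose and 4 fell. That is 53.3% called, against 28.3% of all tested genes, which were not matched on level. Nfatc1, whose product is a calcineurin substrate, rose by 0.33 and the calcineurin catalytic subunit gene Ppp3ca by 0.22, while Nfatc3 fell by 0.29 and the catalytic subunit gene Ppp3cc by 0.65 ± 0.04 (SE, edgeR adjusted p = 1.76e-12). The sodium-proton exchanger gene Slc9a2 fell by 0.60. Calm3, a calmodulin gene, fell by 0.15. Chp1, a calcineurin B-like relative of tescalcin, rose by 0.12, a call lost without dTAG-13 replicate 1 or 3 or any one DMSO replicate (edgeR adjusted p up to 0.117).

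The remaining lists held few tested genes, so their counts of calls say little. Of 4 tested genes of creatine and adenylate phosphotransfer edgeR and DESeq2 each called 0, and 1 had an unadjusted edgeR p below 0.05. Over all tested genes 4753 of 12889 had such a p. Ckmt1, the mitochondrial creatine kinase gene, had a log2 change of -0.52 ± 0.48 (SE, edgeR adjusted p = 0.484). Ckm and the creatine transporter gene Slc6a8 had no exonic read. The QRFP receptor gene Qrfpr had none either, and of its peptide family only Npff was tested (log2 change -0.25 ± 0.36, SE, edgeR adjusted p = 0.671). Of 29 other Platr transcripts 20 were at 0 in all libraries and only Platr1 was tested (log2 change -0.08 ± 0.34, SE, edgeR adjusted p = 0.907). Among 8 tested genes of endophilins and the WAVE actin complex, listed for Tmem108, 37.5% were called, against 28.3% of all tested genes. Abi2 rose by 0.18 while Cyfip2 fell by 0.39 and Nckap1l by 0.20. A count of 0 in a library leaves room for an expected count of up to about 3 reads, the floor given above.

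Genes whose exonic levels over the 8 libraries lay closest to each of the 7 were found by Euclidean distance in log2 CPM. They share this contrast with the 7 and are given as a description. Closest to Qrfp were Srpk3 (distance 1.05), with 5.21 ± 0.960 CPM after dTAG-13 and 1.90 ± 0.463 CPM in DMSO (SD, n = 4 each), and Crisp1 (distance 1.26). Closest to Platr25 were Fam214b (1.04) and the short-chain fatty acid receptor gene Ffar2 (1.09). Tmem108 had no close companion, with Sla2, an adaptor gene of lymphocytes, at 3.13 and Ier3 at 3.24. Sla2 averaged 4.03 ± 0.334 CPM after dTAG-13 and 0.576 ± 0.243 CPM in DMSO (SD, n = 4 each). Nearest to Ckb were Iigp1 (1.76) and Dact3 (1.76), and nearest to Adap1 were Akr1c12 (1.39) and the T cell receptor segment Trav13d-4 (1.41). Myof had Dll1, a Notch ligand gene, at 3.45 and Akr1c12 at 3.50, and Tesc had Dll1 at 3.66 and Snord13 at 3.82. The exonic counts of Myof and Tesc are a few reads, so these distances say little.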

How the data were processed

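Total RNA of 8 libraries was sequenced after ribosomal RNA depletion with a stranded kit, per the labels' protocols. The deposited tables are raw counts, one over exons and one over whole genes. Per the submitters' processing notes the builds were mm10 and GRCm38.p4, and the tools included featureCounts (Subread 2.0.0), STAR 2.7.4a, DESeq2, SAMtools 1.10 and deepTools 3.3.2. How strand was set in counting, and which annotation was used, is not given in the sources used here, so reads of overlapping, antisense or near-identical genes may be split or lost. The authors' deposited table gives, per the file headers, log2 fold changes, their standard errors (a score) and p-values for exonic and intronic counts. Its log2 values of the lowest genes lie near 0, and whether they were shrunken was not stated.

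Intronic counts were computed as whole-gene minus exonic counts, and none was negative. Unannotated exons and retained introns are included. Both tables of 47937 IDs were fitted whole with the quasi-likelihood test of edgeR 4.0.16 in R 4.3.3, with TMM scaling, the filterByExpr filter (count 10, total 15), treatment as the only term and Benjamini-Hochberg adjustment at 0.05. Fold changes are fitted values. The model was tested on simulated data. Intervals of summed counts are exact conditional binomial and those of shares Clopper-Pearson. Median standard errors were 0.07 (exonic) and 0.11 (intronic) on the log2 scale, and p-values set each group difference against the spread between these libraries. Replicates differed by more than sampling noise, so none was a copy.

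Names came from the authors' table for 19321 IDs and from a reference table for 27914, leaving 702 unnamed. Coordinates are from GENCODE vM21 (GRCm38) and promoters from RefSeq. Members, lists, neighbours and tests were chosen with earlier results of these data known. Named genes were the 7, up to 3 neighbours on each side, in each list every gene called and otherwise up to 2 with the smallest p, the 2 genes nearest each by profile (log2 CPM, prior count 2), Ebf1, Gm26917 and Gm42418, and single genes named for their role or for a count of 0. A few genes that these choices cover are counted but not reported here by name. Marker lists served as a check of cell type. Alternatives were other scaling, no filter, DESeq2 1.42.0, whole-gene counts, leaving out Gm26917 and Gm42418, a replicate block, each library left out and fewer neighbours.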

Additional observations from a re-analysis of the deposited data

Results flagged for a closer look

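In 115 groups of 4 libraries checked, 6 held a library whose gap to the nearest other exceeded Dixon's 95% critical share of the group's range, and chance gives about 1 in 20. All 6 were DMSO groups. Exonic Tmem108 was 0.391 CPM in DMSO replicate 3, against 0.104 to 0.138 CPM in the other DMSO libraries. Bfsp2, its neighbour, was 0.657 CPM in DMSO replicate 1, against 1.11 to 1.17 CPM in the others. Anxa1 was 5.42 CPM in DMSO replicate 2, against 3.89 to 3.97 CPM, and Acap2 was 79.0 CPM in DMSO replicate 4, against 72.9 to 73.4 CPM. In DMSO replicate 1, Nfatc3 was 267 CPM, against 250 to 251 CPM, and Nckap1l was 229 CPM, against 223 to 224 CPM.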

How the results depend on the processing

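The direction of every fitted change of the 7 genes was the same under the 14 or 15 alternatives run for each. Exonic log2 changes ranged over 3.80 to 4.73 for Tmem108, 2.53 to 2.92 for Ckb, 1.87 to 2.39 for Platr25, 1.68 to 2.11 for Qrfp and 1.46 to 2.49 for Adap1. Intronic ones ranged over 5.38 to 7.28 for Tmem108, 2.55 to 3.88 for Myof, 2.705 to 3.67 for Adap1, 2.54 to 3.203 for Tesc, 2.65 to 3.04 for Qrfp and 1.69 to 1.93 for Platr25. Without DMSO replicate 3 Tmem108 reached 4.73 in exonic and 7.28 in intronic counts, the intronic fit having no DMSO read left. Whole-gene counts gave 2.49 for Adap1 and 7 called neighbours, against 12 with exonic counts, and the nearest tested gene on each side gave 3 of 14. Called neighbours ran between 9 and 12 and called related genes between 29 and 35 when single libraries were left out. Of the 45 called neighbours and related genes 29 were called in every alternative. No paired analysis is given as a result, since correlations of same-numbered libraries were -0.114 to 0.158 in exonic counts and, of the 4 numbers, only number 1 correlated best with itself. A replicate block gave 3753 exonic calls against 3649 and 1937 intronic calls against 1881. At 3 reads or fewer per library, as for exonic Myof and Tesc in every DMSO library, depth limits every value.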
